A study of Homo sapiens with 27 samples.

Results

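The transcripts of 46 genes that build and run the mitotic spindle were followed in 92.1 cells, a human uveal melanoma line with a GNAQ mutation, which drives growth through the G-protein alpha subunit that it encodes. Membership was set by a fixed list of gene symbols covering the kinetochore, the spindle checkpoint, the mitotic kinases, the motors and the cytokinesis machinery, and all 46 symbols were found among the 61533 genes of the table. The list was chosen with earlier results of these data known, so that shares of members set beside shares of all genes are descriptions. The cells were kept either in DMSO, the vehicle, or in VS-4718 at 100 nM, an inhibitor of focal adhesion kinase (FAKi), and RNA was taken at day 0 (DMSO alone) and at days 3, 7, 14 and 21 of both arms. Each of the 9 groups held 3 libraries, 27 in all, of 12161994 to 43651551 counted reads. All groups were passages of a single cell line, and the study's methods describe both parallel wells and repeats of the whole course. The labels do not say which of these a replicate number stands for, so that p-values measure the spread between these libraries, which may be technical.

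The melanocyte genes that define the lineage were present throughout, with TYRP1 at 3390 to 7060 CPM (read counts scaled to a common library size), PMEL at 2610 to 8110 CPM and SOX10 at 317 to 887 CPM. The lineage gene DCT was low, at 2.49 to 28.5 CPM. KRT5 was at 0 in all 27 libraries, and the leukocyte marker PTPRC did not pass 0.089 CPM. Not all markers of other cell types were absent. The fibroblast markers COL1A1 and LUM were at 3.13 to 9.9 and 1.43 to 8.66 CPM, and the epithelial CDH1 at 0.284 to 2.05 CPM. The other fibroblast, epithelial, leukocyte and endothelial markers checked had medians of at most 0.148 CPM. Some libraries lay closer to another group than to their own. DMSO day 3 replicate 1 was nearest to a DMSO day 0 library, the other DMSO day 3 libraries were nearest to DMSO day 21 replicate 3, and FAKi day 7 replicate 1 was nearest to FAKi day 14 replicate 1. The distance of that pair, 0.2154, was smaller than between any replicates of a group (lowest 0.2285), and whether the label of FAKi day 7 replicate 1 is right was not tested. FAKi day 7 replicate 2 was nearest to a DMSO day 7 library, and FAKi day 14 replicates 1 and 2 to FAKi day 7 replicate 1. DMSO day 21 replicate 3 was nearest to DMSO day 3 replicate 3, at 0.3242, against a mean of 0.744 to its own group. Its title gives day 21, but the header of its counts has a 7 before the 21, unlike DMSO day 21 replicates 1 and 2. Whether its day label is right was not tested. Counts with such libraries left out, singly or as a range, are given for most comparisons. In bulk RNA, fewer dividing cells and less transcript in each dividing cell cannot be told apart.

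Kinetochores are protein plates on the centromeres that hold spindle microtubules. Unattached kinetochores feed the spindle checkpoint, which restrains CDC20 and the anaphase-promoting complex until all chromosomes are held, after which securin and cyclin B are destroyed, the sister chromatids part and the cell divides. Most of these genes are transcribed late in the cell cycle. Their promoters are known for the cell cycle homology region (CHR), bound by the MuvB complexes with B-MYB and FOXM1, and for CCAAT boxes, bound by NF-Y.

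The promoter sequences of 40 of the 46 genes were matched by symbol in the RefSeq table (GRCh38.p14, 250 bases before to 50 bases after each gene start). KNL1, TTK, BIRC5, AURKA, UBE2C and TPX2 had no entry. The CHR letters TTTGAA, on either strand, were found in 30 of the 40, or 75%, against 15.2% of all 35116 promoters in the table. CCAAT, on either strand, was found in 33, or 82.5%, against 34.6% of all promoters. At least 2 CCAAT boxes stood in 52.5% of the members' promoters and in 10.8% of all. Both sets of letters stood together in 62.5% of the members' promoters and in 5.9% of all. Rarer, though also above the share of all promoters, were the E2F letters and a CHR variant. The E2F letters TTTGGCGC, TTTCGCGC or TTTCCCGC were found in 4 of 40 (10.0%, against 2.74% of all), and the CHR variant TTCGAA in 2 of 40 (5.0%, against 1.45%). The CHR matches had a median distance of -28 bases from the start and the CCAAT matches of -75 bases. Matches of different motifs shared bases in 2 promoters, those of CDCA8 and MKI67. A match is a stretch of letters and not a measured binding site.

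Upstream stretches of 2 genes with both motifs are shown because these genes had the smallest p for a change of the FAKi effect over days in their roles. Each runs 5′ to 3′ on the strand of the gene and covers the 250 bases before its start, with the CHR letters and the CCAAT boxes of either strand in capitals (ATTGG is CCAAT on the other strand). PRR11 lies on the plus strand of chromosome 17 (chr17:59155496-59155745) and PRC1 on the minus strand of chromosome 15 (chr15:90994536-90994785).
PRR11: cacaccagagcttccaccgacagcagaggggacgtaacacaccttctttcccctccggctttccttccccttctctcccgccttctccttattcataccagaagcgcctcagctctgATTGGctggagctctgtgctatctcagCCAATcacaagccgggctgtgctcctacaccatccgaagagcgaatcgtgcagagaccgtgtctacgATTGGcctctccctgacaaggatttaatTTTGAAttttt
PRC1: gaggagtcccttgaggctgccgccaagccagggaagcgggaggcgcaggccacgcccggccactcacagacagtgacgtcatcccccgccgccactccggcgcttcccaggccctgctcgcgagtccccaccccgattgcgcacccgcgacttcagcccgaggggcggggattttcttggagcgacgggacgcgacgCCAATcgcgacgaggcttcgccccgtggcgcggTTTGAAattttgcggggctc
In both stretches the CHR letters were the last match before the start, and the nearest CCAAT box stood upstream of them. MAD2L1 also held both, but its CHR letters lay after the start, and its sequence is not printed.

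**Figure D1:**
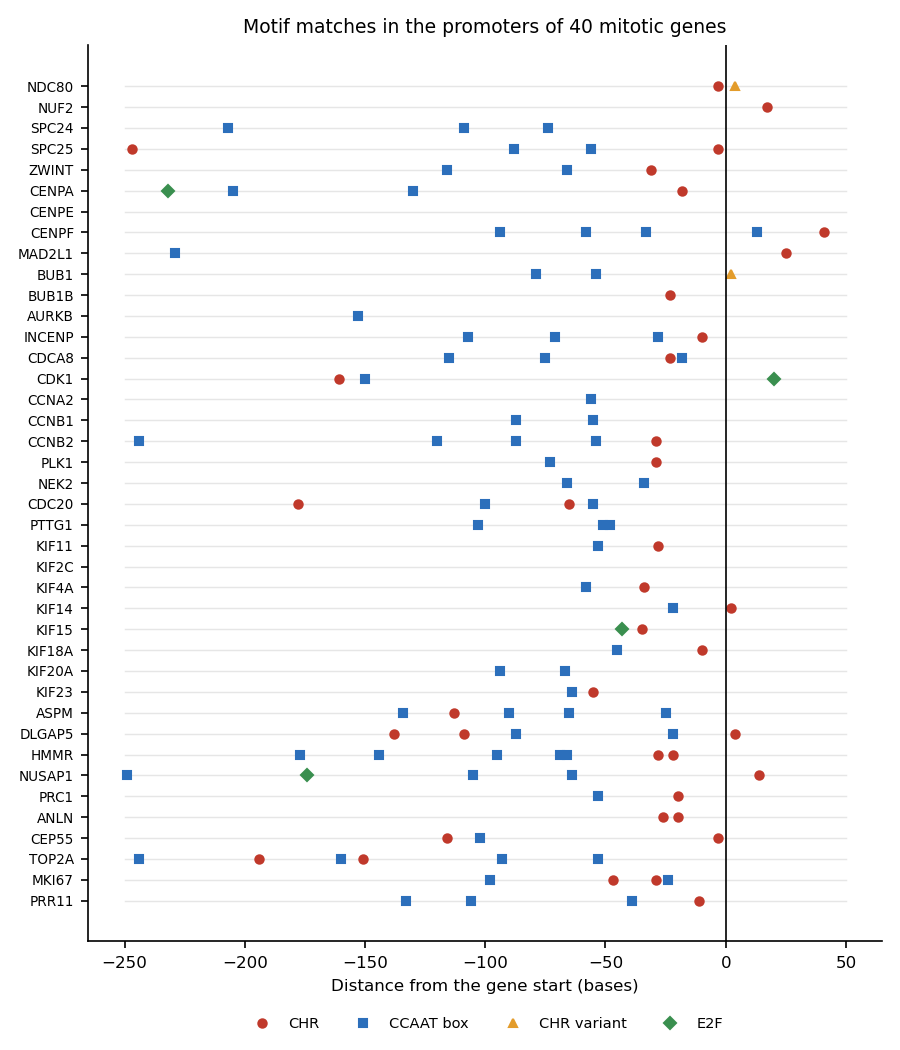
Positions of motif matches in the promoters of 40 mitotic genes, 1 row per gene, with the distance from the gene start in bases on the x axis. Red circles are TTTGAA (CHR), blue squares CCAAT boxes, orange triangles TTCGAA and green diamonds the E2F letters; the CHR matches gather close to the start (median -28) and the CCAAT boxes upstream of them (median -75).

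The levels of the members spanned a wide range. Per kilobase of transcript, PTTG1, which encodes the securin that guards cohesin, was the most abundant at 167.6 CPM on average over the 27 libraries. UBE2C, the ubiquitin-conjugating enzyme of the anaphase-promoting complex, followed at 42.6 CPM per kilobase, TOP2A, the enzyme that untangles DNA, at 42.0, the cyclin gene CCNB1 at 32.0, and TPX2, a spindle assembly factor, at 28.4. The lowest were the scaffold KNL1 at 1.34 and the motor gene KIF15 at 0.796 CPM per kilobase. No member fell under 27 reads in any library. KIF4A and PTTG1 have near-identical copies: KIF4B took 6.37% as many reads as KIF4A, and PTTG3P 1.41% as many as PTTG1.

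The mean log2 CPM over the 46 genes is a summary of how much mitotic transcript a library held. At day 0, in DMSO, it was 4.82 ± 0.14 (SD, n = 3). On day 3 it was 4.77 ± 0.25 in DMSO and 5.60 ± 0.15 in FAKi. By day 7 the DMSO mean was 5.01 ± 0.11 and the FAKi mean 5.04 ± 0.46. Day 14 gave 5.28 ± 0.055 without and 5.61 ± 0.034 with the inhibitor. The last libraries, of day 21, had 4.55 ± 0.056 in DMSO and 3.94 ± 0.038 in FAKi. The FAKi libraries thus lay above all DMSO libraries of the same day at days 3 and 14 and below them at day 21. The wide spread at day 7 came from FAKi replicate 1, at 5.56, against 4.69 and 4.85 for the others.

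**Figure D2:**
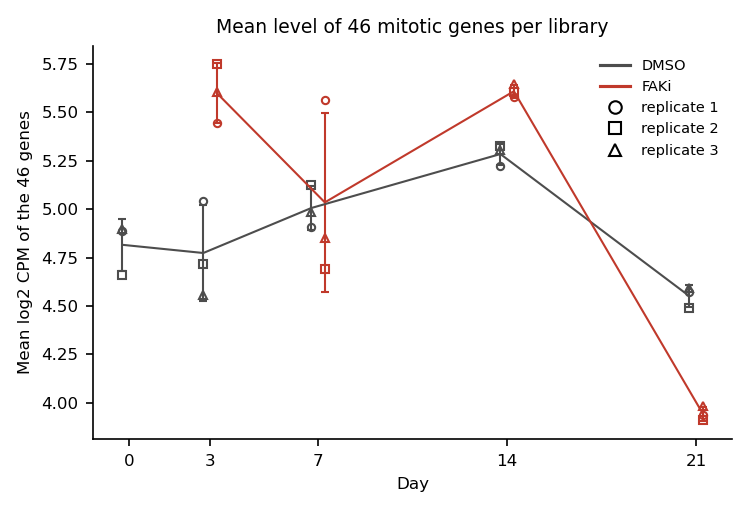
Mean log2 CPM of the 46 mitotic genes in each library (y axis) by day (x axis), with DMSO in grey, FAKi in red, marker shape for the replicate number and lines with bars for the group mean ± SD. The FAKi libraries sit above DMSO at days 3 and 14, overlap with it at day 7 and sit below it at day 21, where they hold the lowest values of the series.

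At day 3, no member passed the test in either direction (adjusted p of at most 0.05 and a log2 fold change beyond 1, edgeR), and neither did any other gene (0%). The values were nevertheless shifted in 1 direction. 45 of the 46 log2 fold changes were positive, with a median of 0.78 against -0.022 over all 22846 genes tested, and in 41 members every FAKi library lay above every DMSO library, against 15.8% of all genes. 42 members had an unadjusted p under 0.05, as did 5442 of all 22846 genes tested. The smallest adjusted p among the members was 0.0945. MKI67, the proliferation antigen that coats mitotic chromosomes, was at 121.3, 51.9 and 40.05 CPM in the DMSO libraries and at 157.8, 236.4 and 191.2 CPM in the FAKi libraries. DMSO replicate 1 lay far above the other DMSO libraries, and the FAKi values all lay above it (log2 fold change 1.47 ± 0.37 (SE), adjusted p = 0.0972). TOP2A was at 241.0, 204.3 and 127.4 CPM in DMSO and at 369.5, 430.5 and 404.7 CPM in FAKi, again without overlap (1.09 ± 0.23, adjusted p = 0.0945). CDC20, the activator of the anaphase-promoting complex, did not share this: its values were 38.2, 39.1 and 52.01 CPM in DMSO and 41.6, 45.5 and 36.3 CPM in FAKi (-0.05 ± 0.17, adjusted p = 0.870). BIRC5, CCNB1, CCNB2 and PLK1 also overlapped between the arms.

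The absence of calls at day 3 depended on the fit and on DMSO replicate 1, the library nearest to day 0. Without that library, 21 of the 46 members passed, all higher in FAKi, and 2765 of all genes did. The DMSO libraries left in that fit were nearest to DMSO day 21 replicate 3. Mitochondrial genes took 9.59% and 8.61% of their reads, against 18.1% in DMSO replicate 1 and 17.0% to 18.8% at day 0. Without DMSO replicate 2 or 3, 0 members passed (0 and 2 of all genes). With DMSO replicate 1 kept, DESeq2 called 16 members, all higher, among 755 genes called in both directions. Mitochondrial genes took 8.61% to 18.1% of the reads in DMSO and 16.8% to 18.7% in FAKi at this day, and the DMSO libraries were the deeper (24759579 to 43651551 reads against 13135695 to 19661612). The part of these in the result was not tested. Without mitochondrial genes the median was 0.80, and with counts thinned to the smallest library 0.78.

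At day 7, no member passed, and the background was 0.0269% of all genes lower in FAKi and none higher. No member had an unadjusted p under 0.05, while 1955 of all 22299 genes tested did. The median log2 fold change was 0.087, with 29 members above and 17 below 0. This balance rested on FAKi replicate 1. Without it the median was -0.24 and 45 of the 46 values were negative, though again none passed. ZWINT, a kinetochore protein that tethers the checkpoint complex, shows the split most plainly: its FAKi libraries were at 86.5, 21.9 and 15.6 CPM against 17.6, 27.4 and 21.3 CPM in DMSO. The first of these was at the level of the FAKi day 14 libraries (87.2, 83.8 and 76.5 CPM).

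At day 14, no member passed both thresholds (0.614% of all genes did, higher in FAKi). By the adjusted p alone, 23 of the 46 were higher in FAKi and 0 lower, against 6.35% of all genes higher. In 31 members every FAKi library lay above every DMSO library, against 14.9% of all genes, and the median log2 fold change was 0.35, against -0.0071 over all genes. The chromosomal passenger complex was complete in this: AURKB, its kinase, INCENP, its scaffold, and CDCA8 and BIRC5, which bring it to the centromere, were all higher (log2 fold changes 0.47 to 0.70). BIRC5 was at 75.5, 79.96 and 87.7 CPM in FAKi and at 63.9, 48.1 and 57.2 CPM in DMSO (0.52 ± 0.12, adjusted p = 0.00447). The midzone and cytokinesis genes PRC1, ANLN and CEP55 were likewise all higher by the adjusted p. These counts depended on the fit. With all 27 libraries fitted together 6 members had an adjusted p of at most 0.05 (CDCA8, CDK1, CCNA2, AURKA, CDC20 and KIF2C, all higher), and with a library left out 16 to 23 did. Past both thresholds these fits called 632 and 275 to 445 of all genes in both directions, against 388 in the main fit. Their counts over all genes by the adjusted p alone are not given here. ZWINT had the smallest adjusted p among the members (0.71 ± 0.11, adjusted p = 0.000135). In 39 members the value was positive and in 7 negative, the lowest being that of CENPE (-0.31, adjusted p = 0.286, groups overlapping). PRR11, a gene linked to mitotic progression, was the member for which all FAKi libraries (33.4, 32.5 and 31.1 CPM) lay below DMSO (33.5, 41.0 and 41.4 CPM), without passing the test (-0.26 ± 0.12, adjusted p = 0.170).

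At day 21 the direction was the opposite. 11 of the 46 members were lower in FAKi than in DMSO (log2 fold change under -1 and adjusted p of at most 0.05), against 2.71% of all genes, and none was higher. Among the 11, SPC24, AURKB, BIRC5, CCNB1, CDC20 and UBE2C were also higher in DMSO at day 21 than at day 0 by the adjusted p. The same DMSO day 21 libraries enter both comparisons, and the part of that rise in the difference between the arms was not tested. After the correction for transcript length and GC content given below, 0 members were called higher in DMSO at day 21 than at day 0. In that fit 3322 of all genes were called in both directions, and the UBE2C value turned negative. By the adjusted p alone 19 were lower, against 6.32% of all genes, and in 26 members every FAKi library lay below every DMSO library, against 17.1%. The median log2 fold change was -0.48, against 0.015 over all genes. The roles differed in their counts. All 7 cyclins and kinases and all 3 anaphase regulators were lower by the adjusted p, against 3 of 9 kinetochore genes, 1 of 4 checkpoint genes, 2 of 4 passenger complex genes, 1 of 8 motors, 1 of 5 spindle proteins, 0 of 3 midzone genes and 1 of 3 other chromosome genes. Whether these shares differ between roles was not tested, and the 19 fell to 1 without FAKi replicate 2, to 4 without FAKi replicate 3, to 10 without FAKi replicate 1 and to 11 without DMSO replicate 1 or 2 (24 without DMSO replicate 3). The background moved as well. Past both thresholds and in both directions, these fits called 52, 148, 412, 397 and 363 of all genes (4248 without DMSO replicate 3), against 1226 with every library.

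**Figure D3:**
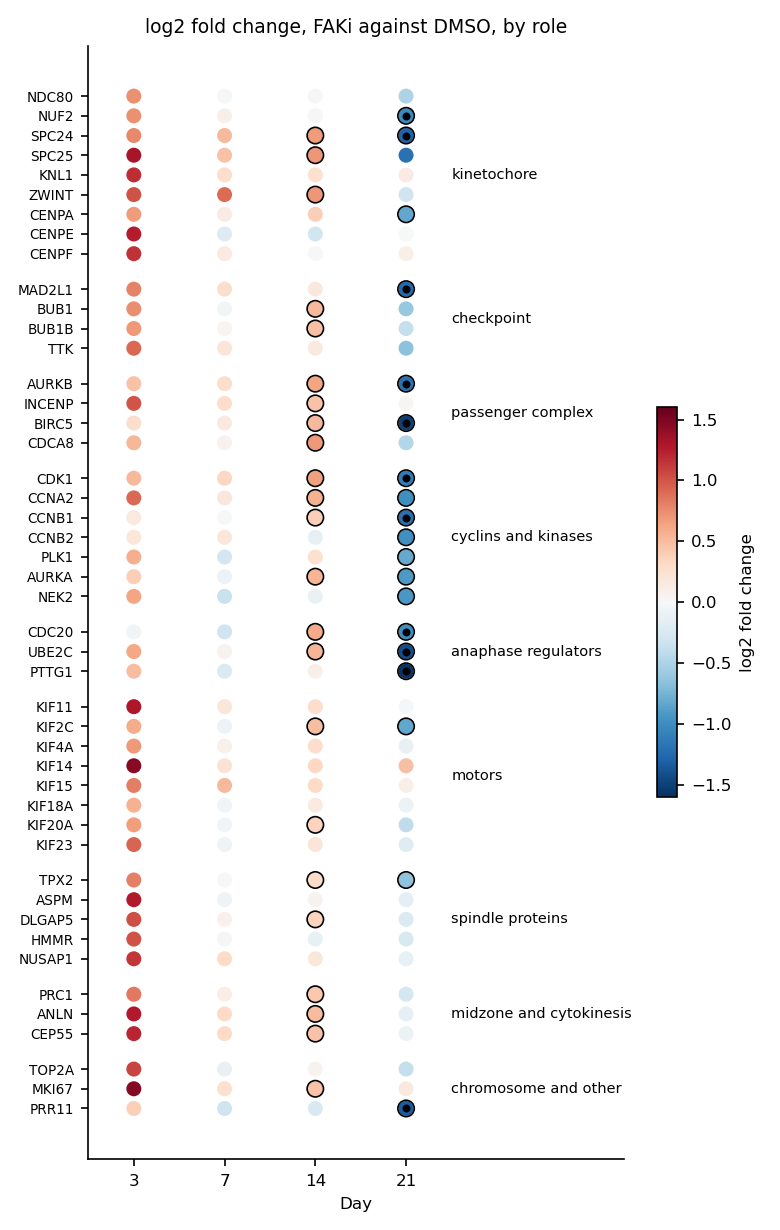
Log2 fold change of FAKi against DMSO (colour) for the 46 mitotic genes (rows, grouped by role) at days 3, 7, 14 and 21 (columns). A black ring marks an adjusted p of at most 0.05 and a black dot a log2 fold change beyond 1 as well; the day 3 column is positive but for CDC20, the 23 rings at day 14 lie on higher values and the 19 rings at day 21 on lower values.

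Among the anaphase regulators, UBE2C was at 48.6, 49.6 and 38.1 CPM in DMSO and at 17.5, 17.0 and 14.8 CPM in FAKi at day 21. The groups lay far apart (log2 fold change -1.41 ± 0.15, adjusted p = 0.00401). PTTG1 was at 350.7, 336.6 and 151.0 CPM in DMSO and at 101.6, 91.4 and 78.5 CPM in FAKi. The arms did not overlap, but DMSO replicate 3 lay far below the other DMSO libraries (-1.57 ± 0.29, adjusted p = 0.0171). CDC20 was at 60.8, 59.3 and 48.2 CPM in DMSO and at 27.5, 29.4 and 24.4 CPM in FAKi (-1.0 ± 0.14, adjusted p = 0.00732). It stood at the fold change threshold, and with the replicate number as a block it missed that threshold (-0.998, adjusted p = 0.000287).

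Of the cyclins and kinases, CCNB1, the cyclin that drives entry into mitosis, was at 99.2, 105.7 and 87.7 CPM in DMSO and at 43.2, 41.1 and 38.5 CPM in FAKi (-1.20 ± 0.13, adjusted p = 0.00379). Its partner kinase CDK1 had 46.8, 46.1 and 39.2 CPM in DMSO and 22.8, 18.6 and 17.3 CPM in FAKi (-1.12 ± 0.15, adjusted p = 0.00666). CCNA2, CCNB2, AURKA, NEK2 and PLK1 were lower by the adjusted p with log2 fold changes of -0.98, -0.98, -0.92, -0.94 and -0.82. The kinases among these act on centrosomes and spindle poles.

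In the kinetochore and checkpoint roles, MAD2L1, the checkpoint protein that sequesters CDC20, was at 27.6, 25.5 and 25.4 CPM in DMSO and at 11.2, 9.63 and 11.1 CPM in FAKi (-1.24 ± 0.14, adjusted p = 0.0042). NUF2, a subunit of the NDC80 complex that grips microtubules, was at 26.5, 27.3 and 23.2 CPM in DMSO and at 13.2, 11.6 and 12.1 CPM in FAKi (-1.01 ± 0.14, adjusted p = 0.00666). Both showed tight groups and no overlap. SPC24, of the same complex, was also lower in FAKi (-1.28 ± 0.27, adjusted p = 0.0247). SPC25, its binding partner, had a value of -1.20 ± 0.33 that missed the threshold (adjusted p = 0.0522) and passed it with the replicate block (adjusted p = 0.0178). NDC80 had a value of -0.49 (adjusted p = 0.154). The large outer proteins KNL1, CENPE and CENPF had values of 0.13, -0.01 and 0.09 with adjusted p from 0.678 to 0.988.

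The passenger complex split. BIRC5, which encodes survivin, was at 106.1, 100.6 and 62.2 CPM in DMSO and at 35.8, 28.6 and 26.6 CPM in FAKi (-1.51 ± 0.21, adjusted p = 0.00732). AURKB was lower in FAKi as well (-1.19 ± 0.23, adjusted p = 0.0186). INCENP was not, with 16.2, 15.3 and 26.1 CPM in DMSO and 13.8, 19.4 and 23.2 CPM in FAKi (0.02, adjusted p = 0.967), and CDCA8 had a value of -0.47 (adjusted p = 0.174).

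KIF2C, a motor that takes microtubules apart at the centromere, was the motor gene with the smallest p, at 40.4, 36.0 and 31.5 CPM in DMSO and 19.8, 19.2 and 19.7 CPM in FAKi (-0.83 ± 0.13, adjusted p = 0.0110). TPX2 was at 74.8, 71.5 and 77.6 CPM in DMSO and at 42.8, 47.2 and 47.9 CPM in FAKi (-0.65 ± 0.12, adjusted p = 0.0171). PRC1, which bundles the microtubules of the midzone, was at 34.5, 29.3 and 38.5 CPM in DMSO and at 27.5, 27.1 and 26.5 CPM in FAKi. These did not overlap, but the difference did not pass (-0.29 ± 0.14, adjusted p = 0.200). Exons of other genes cover 88.4% of the counted PRC1 transcript on its own strand and 38.8% on the opposite strand, so that its reads may be shared. The same limit holds for NUSAP1, at 99.21% and 11.15%, and to a smaller extent for BUB1B, at 10.6% on its own strand. CCNA2, PRR11 and PLK1 are covered at 9.24%, 5.16% and 5.15% on the opposite strand. PRR11 had the smallest p of all members, with 39.1, 39.2 and 38.0 CPM in DMSO and 15.3, 14.3 and 15.1 CPM in FAKi (-1.33 ± 0.12, adjusted p = 0.00298). MKI67 had a value of 0.16 (adjusted p = 0.547) and TOP2A of -0.38 (adjusted p = 0.273).

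The number of calls at day 21 depended on single libraries. It was 1 without FAKi replicate 2 (PRR11 alone), 4 without FAKi replicate 3, 6 without DMSO replicate 2 and 13 without DMSO replicate 3, the library nearest to DMSO day 3. Over all genes, in both directions, the same fits called 52, 148, 363 and 4248, against 1226 with every library, so that the background moved as well. PRR11 passed in all 6 of these fits, and CCNB1, UBE2C and MAD2L1 in 5. Mitochondrial genes took 5.49% to 9.75% of the reads in DMSO and 10.7% to 11.2% in FAKi; the part of this in the result was not tested, and without these genes 10 members were called.

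Transcript length moved with these differences. Across the 46 members the day 21 log2 fold change had a Pearson r of 0.675 with the log2 of transcript length, and the day 3 change an r of 0.555. Across 12764 and 12847 protein-coding genes with a mean of at least 1 CPM, r was 0.332 and 0.372. Genes share libraries, depth and base composition, so these are descriptions. At day 21 the 16 members under 2500 bases had a median of -1.01, against -0.34 for the 4017 genes of that length, and 8 of them were called. The 18 members of 2500 to 4500 bases had a median of -0.34 against -0.0071, and the 12 longer members of -0.011 against 0.16. Thus 43 of the 46 lay below the median of genes of like length at day 21. At day 3 all 46 lay above it, with medians of 0.57, 0.83 and 1.22 from the shortest to the longest class against -0.22, -0.020 and 0.21.

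When each library was corrected for transcript length and GC content, 7 members remained called at day 21: SPC24, MAD2L1, BIRC5, CCNB1, UBE2C, PTTG1 and PRR11, with log2 fold changes of -1.18, -1.34, -1.49, -1.08, -1.16, -1.30 and -1.55. NUF2, AURKB, CDK1 and CDC20 moved to -0.82, -0.90, -0.85 and -0.81, under the fold change threshold. By the adjusted p alone 22 were lower after correction, and 45 of the 46 values were negative, with a median of -0.45. MAD2L1 and PRR11, at 5218 and 6207 bases, were the long genes among the called ones. With the replicate block and the correction together the count was again 7. Over all genes, in both directions, these fits called 1381 and 2087.

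**Figure D4:**
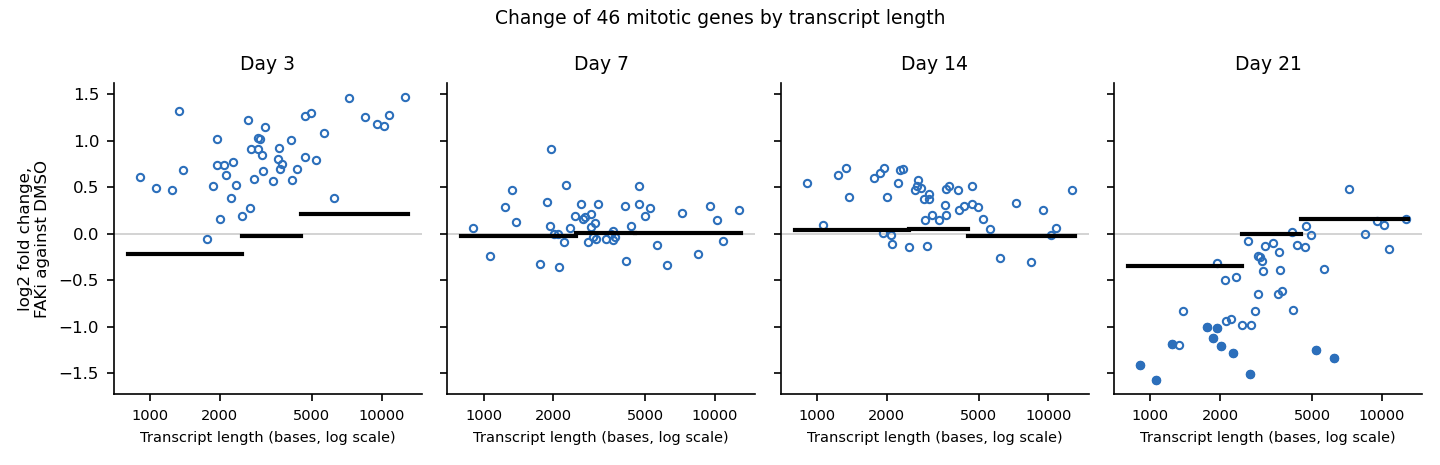
Log2 fold change of FAKi against DMSO (y axis) against transcript length in bases (x axis, log scale) for the 46 mitotic genes at each day, with filled circles for genes past both thresholds and black bars for the median of all protein-coding genes of the same length class. At day 3 every point lies above the bar of its class, and at day 21 43 of 46 lie below it, while both the points and the bars slope upwards with length.

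The change of the FAKi effect between days was tested directly as an interaction over the 24 libraries of days 3, 7, 14 and 21. 31 of the 46 members passed (adjusted p of at most 0.05 and a range of the fitted effect beyond 1 on the log2 scale), against 7.68% of all genes. The effect was highest at day 3 for 39 members and at day 14 for 7, and lowest at day 21 for 43. All 7 cyclins and kinases, all 4 checkpoint genes and all 3 anaphase regulators passed, against 5 of 9 kinetochore genes and 2 of 8 motors. CCNB1 had the smallest p, with a range of 1.605 (adjusted p = 8.1e-05). UBE2C ranged over 2.03 (adjusted p = 0.000123), from 0.61 at day 3 to -1.42 at day 21 in this fit, and MAD2L1 over 2.04 (adjusted p = 0.000447). The widest range was that of SPC25, a partner of SPC24, at 2.53 (adjusted p = 0.00563).

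The gene with the smallest p in each role is given here in every library before day 21. CCNB1 started from 62.2, 50.2 and 58.3 CPM. Its DMSO libraries then had 62.5, 80.05 and 87.3 CPM (day 3), 53.1, 57.9 and 55.8 CPM (day 7) and 49.6, 45.2 and 51.03 CPM (day 14). In FAKi it had 72.7, 86.04 and 94.6 CPM (day 3), 56.5, 53.3 and 57.01 CPM (day 7) and 55.7, 66.7 and 69.7 CPM (day 14). Only day 14 separated the arms of these 3 days, with FAKi above. UBE2C had 34.2, 33.3 and 35.9 CPM at day 0. Under DMSO it was at 42.1, 30.7 and 36.9 CPM (day 3), 34.97, 37.6 and 37.2 CPM (day 7) and 41.8, 29.6 and 29.9 CPM (day 14), and under FAKi at 45.2, 60.8 and 60.5 CPM (day 3), 52.3, 32.5 and 30.04 CPM (day 7) and 50.5, 48.5 and 49.4 CPM (day 14). FAKi lay above DMSO at days 3 and 14 and overlapped with it at day 7. For MAD2L1 the day 0 libraries had 28.1, 24.5 and 25.1 CPM. DMSO gave 27.9, 26.1 and 24.8 CPM (day 3), 29.9, 26.7 and 26.6 CPM (day 7) and 46.9, 42.8 and 38.5 CPM (day 14). FAKi gave 38.9, 52.1 and 44.5 CPM (day 3), 51.9, 23.6 and 25.4 CPM (day 7) and 46.6, 49.1 and 48.5 CPM (day 14). Day 3 separated the arms, and day 14 did not.

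NUF2 began at 28.96, 23.7 and 25.6 CPM. It stood at 27.3, 26.4 and 26.5 CPM (day 3), 25.6, 29.3 and 24.8 CPM (day 7) and 36.3, 43.4 and 43.6 CPM (day 14) in DMSO, and at 40.98, 47.8 and 43.8 CPM (day 3), 40.4, 18.3 and 26.2 CPM (day 7) and 39.9, 38.1 and 46.3 CPM (day 14) in FAKi. As with MAD2L1, the arms were apart at day 3 and overlapped at day 14. BIRC5 had 49.01, 43.1 and 49.1 CPM at the start. The DMSO libraries were at 54.9, 53.4 and 74.4 CPM (day 3), 41.4, 52.6 and 45.2 CPM (day 7) and 63.9, 48.1 and 57.2 CPM (day 14). Those in FAKi were at 60.9, 83.7 and 74.8 CPM (day 3), 80.3, 35.8 and 39.8 CPM (day 7) and 75.5, 79.96 and 87.7 CPM (day 14). Here day 3 overlapped and day 14 did not. KIF2C had 28.5, 28.7 and 31.04 CPM in the day 0 libraries, then 36.2, 29.8 and 31.3 CPM (day 3), 27.8, 34.4 and 30.99 CPM (day 7) and 28.2, 25.9 and 23.8 CPM (day 14) in DMSO. The FAKi values were 46.7, 53.8 and 45.2 CPM (day 3), 33.2, 28.7 and 25.9 CPM (day 7) and 36.8, 36.1 and 36.9 CPM (day 14). Both days 3 and 14 separated the arms.

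TPX2 was at 103.8, 86.97 and 96.6 CPM at day 0. DMSO libraries held 108.4, 83.4 and 84.2 CPM (day 3), 91.3, 109.3 and 98.9 CPM (day 7) and 105.2, 108.6 and 115 CPM (day 14), and FAKi libraries 138.6, 177.5 and 160.8 CPM (day 3), 127.3, 85.97 and 86.3 CPM (day 7) and 137, 140 and 130.8 CPM (day 14). The arms were again apart at days 3 and 14. PRC1 went from 57.1, 43.1 and 50.1 CPM to 55.1, 43.8 and 39.3 CPM (day 3), 52.2, 59.6 and 52.99 CPM (day 7) and 64.96, 71.02 and 66.5 CPM (day 14) in DMSO. In FAKi it was at 71.9, 88.6 and 86.5 CPM (day 3), 87.6, 46.1 and 44.8 CPM (day 7) and 87.8, 90.8 and 95.4 CPM (day 14). FAKi lay above DMSO at days 3 and 14. PRR11 was at 50.1, 44.4 and 48.5 CPM at day 0 and at 44.4, 39.6 and 35.9 CPM (day 3), 54.4, 54.5 and 50.3 CPM (day 7) and 33.5, 40.99 and 41.4 CPM (day 14) in DMSO. Its FAKi libraries had 51.02, 52.1 and 52.4 CPM (day 3), 31.3, 39.5 and 56.2 CPM (day 7) and 33.4, 32.5 and 31.1 CPM (day 14). It was the gene of this set whose FAKi libraries were above DMSO at day 3 and below it at day 14.

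This result rested on day 21. With days 3, 7 and 14 alone, 3 members passed (CENPE, HMMR and TOP2A, a kinetochore motor, a spindle protein and the topoisomerase, named after their values were seen). With day 7 left out 38 passed, and 44 did, 30 of the 31 among them, once DMSO day 3 replicate 1, FAKi day 7 replicate 1 and DMSO day 21 replicate 3 were all dropped. Over all genes 2633 and 6575 passed in these fits, against 2143 with every library, and 578 with days 3, 7 and 14 alone. With the length and GC correction 30 passed, 29 of them among the 31, and 1893 of all genes did.

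**Figure D5:**
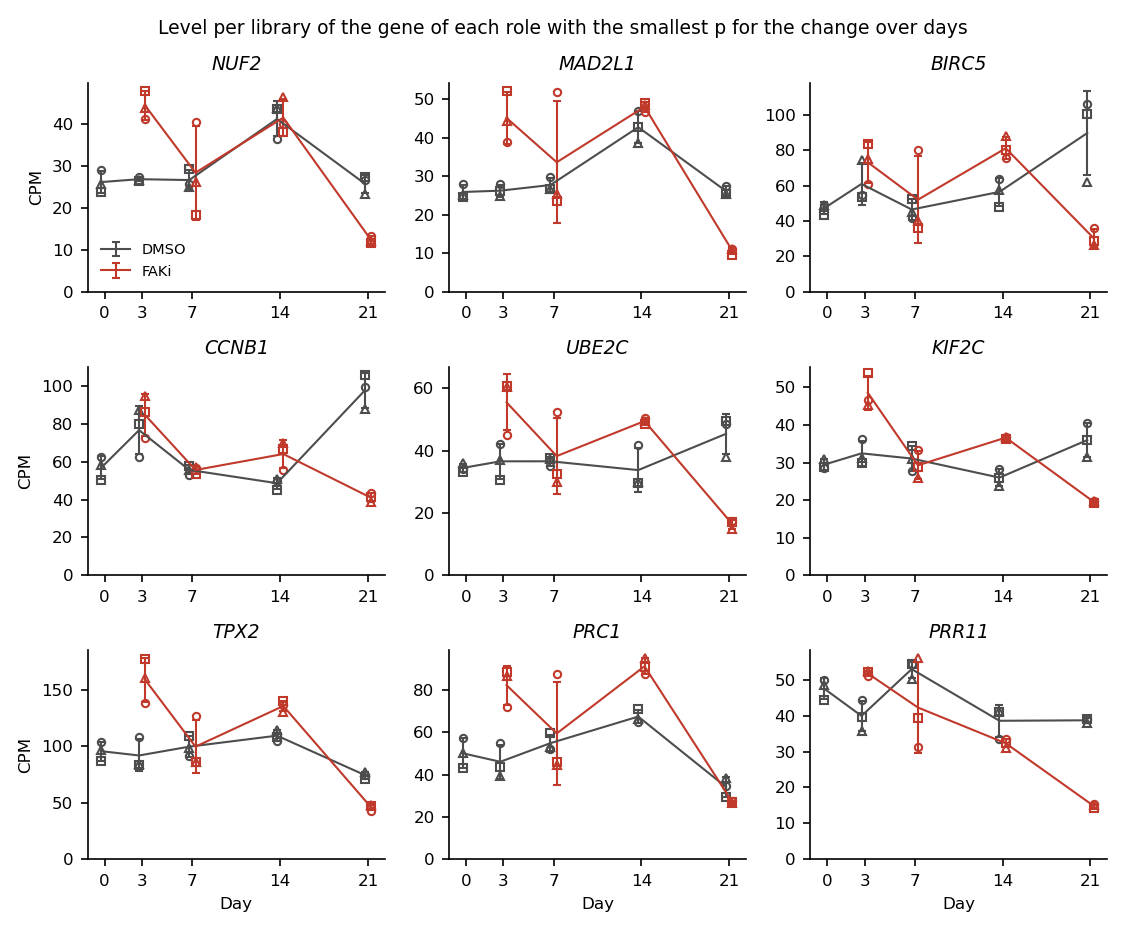
CPM in each library (y axis) by day (x axis) for the gene of each role with the smallest p for the change over days, with DMSO in grey, FAKi in red, circles, squares and triangles for replicates 1, 2 and 3, and lines with bars for the mean ± SD. All genes have their lowest FAKi mean at day 21; CCNB1, BIRC5, UBE2C and KIF2C have their highest DMSO mean at that day, and NUF2, PRC1 and TPX2 their lowest.

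Within the FAKi arm, 44 of the 46 members changed over days (24.2% of all genes), and all 46 had their lowest fitted level at day 21. The highest level was at day 14 for 24 and at day 3 for 22. From FAKi day 3 to FAKi day 21, 44 fell past both thresholds, against 10.4% of all genes, with a median log2 change of -1.68. Every day 21 library lay below every day 3 library in all 46, against 30.1% of all genes. TOP2A went from 369.5, 430.5 and 404.7 CPM to 70.96, 78.1 and 96.5 CPM (-2.28 ± 0.12, adjusted p = 1.49e-11). CCNB2 and CDC20 were the exceptions to the fold change threshold, at -0.80 and -0.59. After the length and GC correction 40 of the 46 passed, with 3794 of all genes called in both directions, and the median was -1.46.

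Within the DMSO arm, 21 of the 46 members changed over days, against 32.9% of all genes. Without DMSO day 21 replicate 3, 27 members did, with 10321 of all genes against 8606 with every library. The highest level was at day 14 for 29 and at day 21 for 10, and the lowest at day 21 for 28. Between DMSO day 0 and DMSO day 21 the members moved both ways. 8 fell past both thresholds, against 10% of all genes, namely KNL1, CENPE, INCENP, KIF14, ASPM, ANLN, TOP2A and MKI67, and 1 rose, SPC24, against 13.2%. By the adjusted p alone 20 were lower and 7 higher, against 20.7% and 24.1%. The 7 were SPC24, AURKB, BIRC5, CCNB1, CCNB2, CDC20 and UBE2C. Without DMSO day 21 replicate 3, 9 members fell and 4 rose past both thresholds, with 7999 of all genes called against 5177 with every library. CCNB1 went from 62.2, 50.2 and 58.3 CPM at day 0 to 99.2, 105.7 and 87.7 CPM at day 21 (0.77 ± 0.14, adjusted p = 0.00419), while MKI67 went from 71.6, 66.1 and 91.5 CPM to 32.0, 35.2 and 41.1 CPM (-1.09 ± 0.17, adjusted p = 0.00285). Neither gene overlapped between the days.

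Here too the change followed length, with r = -0.760 over the members and r = -0.545 over 12769 genes. After the length and GC correction 1 member passed, INCENP, with 3322 of all genes called in both directions. UBE2C turned from 0.39 to -0.29 and PRR11 from -0.30 to 0.32. Relative to day 0, the members under 2500 bases had a median of 0.43 and those over 4500 bases of -1.08, against 0.60 and -0.52 for all genes of these lengths. The same DMSO day 21 libraries enter both comparisons, and no overlap between the lists is read from them.

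The members also differed in how far they moved together. The median Pearson correlation between pairs of members over the 27 libraries was 0.751, and it ranged from -0.422 to 0.988. PRC1 followed the mean of the other members most closely (r = 0.980), then TPX2 (0.974) and CCNA2 (0.972). CDC20 (-0.083), CCNB1 (0.244) and PTTG1 (0.434) followed it least. These genes act on the destruction of securin and cyclin B at the start of anaphase, or are its targets. UBE2C, of the same step, followed the mean more closely (r = 0.774). In DMSO they were among the 10 members with their highest level at day 21. CDC20, CCNB1 and PTTG1 are also short, at 1758, 2012 and 1061 bases, and the part of length in this was not tested. The 27 libraries share 9 groups, so that these correlations are descriptions. Members with the CHR letters had a median log2 fold change of 0.88 at day 3 and -0.28 at day 21 (n = 30), and those without had 0.65 and -0.97 (n = 10); this difference was not tested.

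Other genes of the cell cycle were set beside the members from lists written for that purpose. Of 78 further mitotic genes, 6 were lower in FAKi past both thresholds at day 21 (2.71% of all genes were) and 0 higher, with a median of -0.34. At day 3 their median was 0.61 with 0 called. CENPI and CENPM, of the inner kinetochore, were higher in FAKi at day 14 (log2 fold changes 1.09 and 1.11), as 0.614% of all genes were. Of 41 genes of the G1/S transition and DNA replication, 3 were lower in FAKi at day 21 against the same 2.71%. These were CDT1, GINS2 and TK1 (-1.04, -1.14 and -1.30, with a list median of -0.41). At day 14, 3 were higher against the same 0.614%, CDC6, CDC45 and CHAF1B (1.09, 1.20 and 1.03, with a list median of 0.73). By the adjusted p alone 33 of these 41 were higher at day 14, against 6.35% of all genes.

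Regulators of mitotic transcription, which include the MuvB partners and NF-Y, formed a list of 15. MYBL2, which encodes B-MYB, was higher in FAKi at day 14 (1.38 ± 0.10, adjusted p = 1.16e-08) and lower at day 21 by the adjusted p alone (-0.78 ± 0.16, adjusted p = 0.0225). FOXM1, E2F1, TFDP1 and E2F4 were higher at day 14 by the adjusted p alone (0.94, 0.94, 0.65 and 0.42), and NFYB, a subunit of NF-Y, lower (-0.64). The median of the list was 0.24 at day 14 and 0.046 at day 21.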

How the data were processed

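RNA-seq libraries of 92.1 cells were analysed from the raw counts per gene that the authors deposited. Per the file headers, the authors counted reads in exons with HOMER (GENCODE 39, hg38), 1 transcript per gene; the submitters' processing notes also name Trim Galore, FastQC 0.11.8, STAR 2.5.3a and DESeq2. The library kit kept strand, and the header gives no strand setting.

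Genes with at least 20 reads over the libraries of a fit were tested with edgeR 4.0.16 (quasi-likelihood, TMM) in R 4.3.3, with Benjamini-Hochberg adjustment over all genes tested and fits on the groups compared. A call needed an adjusted p of at most 0.05 and a log2 fold change (or range) beyond 1. CPM by library was scaled over all 27. SE is the log2 fold change over the root of F. Genes were named by role: those called, the highest per kilobase, and the smallest p at day 21 and for the change over days. Members and lists were chosen with earlier results of these data known. Deviations from the group mean of equally numbered libraries correlated between the arms at day 21 (r = 0.128 to 0.658 in 3 of 3 pairs). At the other days r was -0.144 to 0.107. Between DMSO day 3 and DMSO day 21 r was -0.491, -0.2 and -0.749, so that these values do not show that equal numbers are pairs. Total reads were 12161994 to 43651551 per library, and counts cover sampling error only. Alternatives were RLE, no count filter, all 27 libraries, DESeq2 1.42.0, the adjusted p alone, the block and each library left out; thinning, no mitochondrial genes, fewer days, 3 libraries left out and a loess correction (span 0.5) for length and GC, with GC known for 99.5% of genes, were added after seeing the data. Overlaps and GC came from GENCODE 44. The fits were tested on simulated data.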

Additional observations from a re-analysis of the deposited data

Results flagged for a closer look

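The FAKi effect differed between days 3, 7, 14 and 21 by the test of the interaction for 31 of the 46 genes. The gene of each role with the smallest p is listed here by the range of its fitted effect on the log2 scale. The range was 1.75 for NUF2, 2.04 for MAD2L1, 2.04 for BIRC5, 1.605 for CCNB1 and 2.03 for UBE2C. It was 1.42 for KIF2C, 1.46 for TPX2, 1.14 for PRC1 and 1.72 for PRR11.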

How the results depend on the processing

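At day 3, 0 members were called, but 12 when low counts were kept, 13 when the 27 libraries were fitted together, 16 with DESeq2, and 0 to 21 with a library left out. Over all genes the 0 calls became 1181, 802, 755 and 0 to 2765 in these fits. At day 14 the adjusted p alone gave 23 in place of 0, and 2918 in place of 388 over all genes. At day 21 the 11 calls became 19 by the adjusted p alone, 7 with the length and GC correction, 7 with the replicate block and that correction, and 1 to 13 with a library left out. Over all genes the 1226 calls became 2692, 1381, 2087 and 52 to 4248 in these fits. The replicate block by itself also gave 11 at day 21, 10 of them shared, with SPC25 in place of CDC20, and 2076 over all genes. At days 3, 7 and 14 the block gave 0, and for the change over days 30. It moved no count by over 1.5 times. Between DMSO days 0 and 21, the 9 calls became 27 by the adjusted p alone and 1 with the correction, and the 5177 over all genes 9986 and 3322. The 21 changes over days in DMSO became 41 and 11 under the same settings, and the 8606 over all genes 13074 and 6308. The 31 changes of the effect became 3 with days 3, 7 and 14 alone and 25 to 41 with a library left out. Over all genes the fit with 25 (without FAKi day 3 replicate 2) called 1536, against 2143 with every library. The fits with 41, without DMSO day 3 replicate 1 or FAKi day 7 replicate 1, called 3819 and 3020. The day 7 median turned to -0.2388 without FAKi replicate 1 (range 0.2453 to -0.2388 with a library left out). Between DMSO days 0 and 21, UBE2C turned to -0.2874 and PRR11 to 0.3151 with the correction. The causes were not tested. RLE scaling moved no count of calls by over 1.5 times. The lowest count of any member in a library was 27 reads (KIF15).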
